A study of Mus musculus with 20 samples.

Results

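Imprinted genes are transcribed mainly from 1 parental copy, and 10 of them were followed here through the conversion of extraembryonic endoderm into pluripotent cells and of pluripotent cells into extraembryonic endoderm. The genes were chosen by symbol as the count columns H19, IGF2, MEST, SNRPN, PEG3, PEG10, PHLDA2, CDKN1C, GRB10 and NNAT, which are 10 of the 22936 gene symbols in the count files. The measured value used in the choice was the number of collagen UMIs in a cell: cells with 5 or more UMIs (unique molecular identifiers, each marking 1 counted RNA molecule) of Col1a1, Col1a2 and Col3a1 together were taken as feeder fibroblasts and left out. No feeders are named for the ES conversion, where the same limit left out 45 cells of ES replicate 1 and 13 and 3 cells of the iXEN libraries. What these collagen-positive cells are was not tested. At that limit, 219 cells with exactly 4 such UMIs were kept and 183 cells with exactly 5 were left out.

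Genomic imprinting marks one parental copy of a gene with DNA methylation that is laid down in the egg or the sperm and kept after fertilization at imprint control regions. The copy that stays active differs between genes: H19, Phlda2, Cdkn1c and, in most tissues, Grb10 are transcribed from the maternal copy, and Igf2, Mest, Snrpn, Peg3, Peg10 and Nnat from the paternal one. Many imprinted genes act in the growth of the embryo and placenta, and cultured pluripotent cells are known for losing imprints. The counts do not tell the 2 parental copies apart, so every value below is the sum of both.

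Each conversion was sampled in 5 conditions with 2 libraries each, which the labels call technical duplicates, for 20 droplet libraries in all. XEN cells, a line cultured from the primitive endoderm (the single line 3F-4 XEN, with Col1A1TetO-OKSmCh/TetO-OKSmCh together with R26M2rtTA/M2rtTA and Oct4-GFPTg/Tg), carried Oct4, Klf4 and Sox2 under doxycycline control and were sampled before induction (XEN), after 7, 14 and 28 days of doxycycline, and as XEN-iPS cells sorted at days 14 and 28 and replated. These 5 conditions were grown on mouse fibroblast feeders, and the libraries of days 7, 14 and 28 hold sorted subpopulations put together again in about equal parts, so a mean level in them is not that of the culture. The paper kept XEN cells and days 7 to 28 in serum and LIF (leukemia inhibitory factor) with ascorbic acid and a GSK3 inhibitor. XEN-iPS cells were in serum and LIF without these additions or doxycycline for their last 7 days. In comparisons of XEN-iPS with XEN, medium and condition thus cannot be told apart. The paper also kept ES cells in serum and LIF, but on gelatin. In XEN-iPS against ES, feeders and condition therefore cannot be told apart. ES cells, from the inner cell mass (the line iGata4-Gata6-Venus, with Col1A1TetO-Gata4/+ together with R26M2rtTA/+ and Gata6H2B-Venus/+), carried Gata4 under doxycycline control and were sampled before induction (ES), after 9h (sorted and recombined), 24h and 48h, and as iXEN cells after 4 days with and 7 days without doxycycline. All 10 conditions thus carry the doxycycline transactivator, and each conversion rests on 1 line, so in any comparison across the 2 conversions the line and the condition cannot be told apart.

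The 110725 cells kept, between 1981 and 9246 per library, had at least 500 genes and fewer than 5 collagen UMIs, and their UMIs were summed to between 48023682 and 138204184 per library. A gene's level in a library and the sums over marker lists are given in CPM, the usual counts relative to the library total, here scaled by TMM, and levels are compared between conditions for 1 gene, not between genes. Levels in part of a library's cells, of collagen and of RNA matching collagen are in plain CPM, without TMM, and are set only beside other plain CPM. All 15 of 15 endoderm and 15 of 15 pluripotent markers had UMIs in every condition. The pluripotent markers include Pou5f1 (Oct4) and Sox2, which doxycycline induces in the XEN line. The endoderm markers include Gata4, which it induces in the ES line. The part of such induced RNA in the marker sums and marker shares was not tested. The endoderm markers summed to 15270 to 19580 CPM in XEN and iXEN libraries and to 210 to 538 CPM in ES and XEN-iPS libraries, and the pluripotent markers to 176 to 440 CPM and 8964 to 13560 CPM, so the labelled cell types match their markers. XEN-iPS replicate 2 stood apart: 28.5% of its cells were left out as feeder cells, against 0% to 10.2% in the other libraries, and its kept cells still held 59.2 collagen CPM, against at most 8.45 CPM elsewhere. The XEN-iPS duplicates also differed the most from each other (their log2 ratio had an SD of 0.698 across genes, against 0.0822 for the 9h duplicates). At most 134 cell barcodes were shared by any pair of libraries. The file names carry 4 sequencing project numbers, here called runs. The duplicates of 24h, 48h and XEN-iPS lie in different runs, so in these 3 conditions the spread between duplicates cannot be told apart from that between runs. XEN, day 28 and ES share 1 run, and every other comparison with XEN or ES cannot be told apart from a difference between runs. Since the duplicates are technical, errors and p-values do not cover the spread between cultures.

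A gene was called where edgeR's quasi-likelihood test gave an adjusted p under 0.05 and the log2 fold change reached 1 or -1, and all 10 genes passed the filter on low counts. Against XEN, 5 of 10 were called at day 7 (18.4% of all 16903 genes tested were called), 4 at day 14 (17.8% of all genes), 8 at day 28 (29.8%) and 9 in XEN-iPS (45.2%). The median log2 fold change of the 10 genes went from 0.09 at day 7 and 0.67 at day 14 to 2.41 at day 28 and 4.32 in XEN-iPS, beside medians over all genes between 0.00 and 0.10. The genes did not move together. Called genes were 3 higher and 2 lower at day 7, 3 and 1 at day 14, 6 and 2 at day 28, and 6 and 3 in XEN-iPS. The comparisons with ES called 1 of 10 at 9h (6.14% of all genes), 0 at 24h (9.81% of all genes), 7 at 48h (29.6%) and 9 with iXEN (42.3%). The 0 calls at 24h came from edgeR, where 5 of the 10 genes had an unadjusted p under 0.05, and DESeq2 called 2 of them, Peg10 and Phlda2. In the 48h libraries 2 of the called genes were higher and 5 lower than in ES. In iXEN 4 were higher and 5 lower. ES against XEN gave 9 of 10 calls (44.3% of all genes), iXEN against XEN 6 (20.2%) and XEN-iPS against ES 7 (16.3%). The share of the 10 genes called was above that of all genes in each of these comparisons but 24h against ES. The 10 genes were picked with results of these data known, so the counts are a description.

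**Figure D1:**
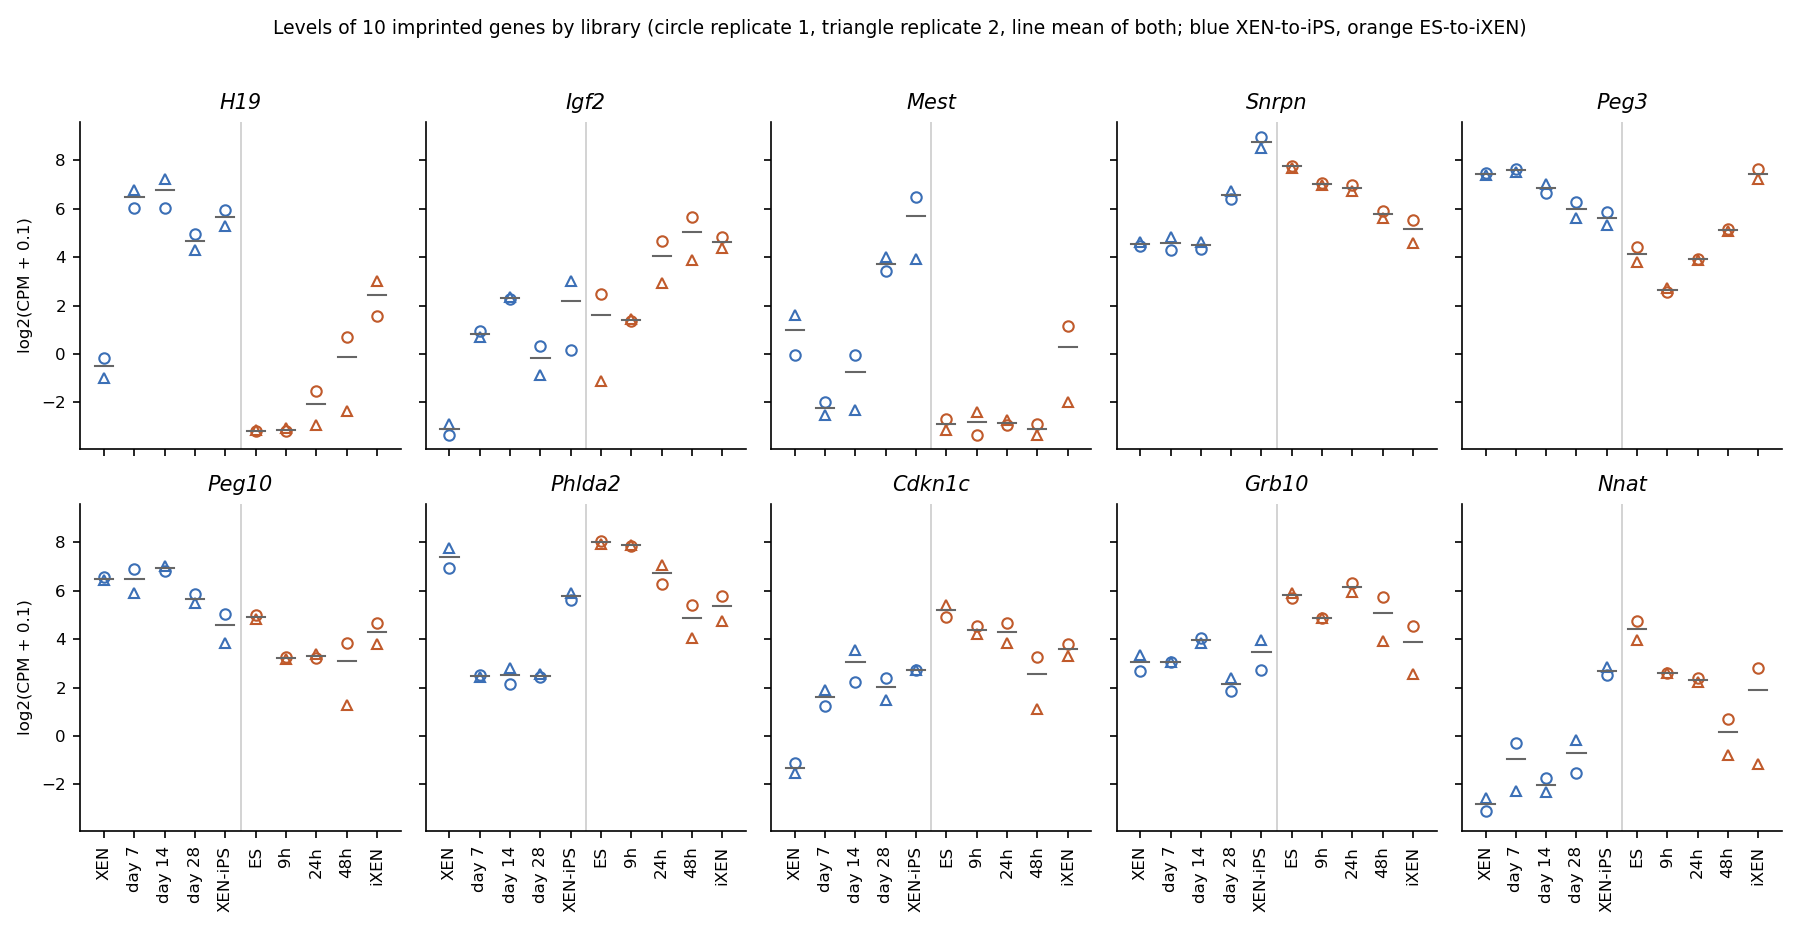
Levels of the 10 genes in the 20 libraries, as log2(CPM + 0.1) on the vertical axis and the 10 conditions on the horizontal axis (circles replicate 1, triangles replicate 2, lines the mean of both, blue XEN-to-iPS, orange ES-to-iXEN). H19 was near the bottom of the scale in ES and 9h and between 19.5 and 152 CPM from day 7 to XEN-iPS.

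H19 and Igf2 are neighbours on mouse chromosome 7 that share enhancers, with a methylated control region between them. H19 gives a long noncoding RNA of the maternal copy (ENSMUSG00000000031.16, chromosome 7, 142575529 to 142578143, minus strand, GRCm38), and Igf2 encodes a fetal growth factor (142650766 to 142666816, minus strand). H19 was at 0.804 and 0.397 CPM in the 2 XEN libraries, 65.5 and 111 CPM at day 7, 66.1 and 152 CPM at day 14, 30.8 and 19.5 CPM at day 28 and 62.1 and 38.9 CPM in XEN-iPS. Both libraries of each later condition were above both XEN libraries. The log2 fold changes against XEN were 7.20 (SE 0.95, adjusted p = 0.000145) at day 7, 7.50 (SE 0.96, adjusted p = 0.000104) at day 14, 5.39 (SE 0.88, adjusted p = 0.00027) at day 28 and 6.39 (SE 0.92, adjusted p = 3.82e-05) in XEN-iPS.

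In the ES line H19 was almost without UMIs. The 2 ES libraries held 1 and 2 UMIs, the 9h libraries 1 and 2, the 24h libraries 16 and 2, the 48h libraries 83 and 8, and the iXEN libraries 187 and 522, which is 2.91 and 7.88 CPM in iXEN. At 9h both groups held 3 UMIs in all, so no ratio is given and the fitted values for it are not read as a difference. With 3 UMIs in ES, the ratio to ES was 12.2 at 24h (95% counting interval 3.55 to 64.4), 51.7 at 48h (17.2 to 256) and 558 in iXEN (190 to 2710). The call at 48h (adjusted p = 0.00402) ended without 48h replicate 1 (adjusted p = 0.19) and could not be made with only the compared groups fitted, where H19 did not pass the filter on low counts, and the call in iXEN (adjusted p = 5.02e-05) held in every setting tried. XEN held 131 H19 UMIs, a ratio to ES of 47.3 (15.8 to 232), and XEN-iPS 6869, a ratio to ES of 4597 (1572 to 22300). Fitted fold changes against these ES counts depend on the prior count of the fit. These intervals cover counting error only. Over all conditions the order was day 14, day 7, XEN-iPS, day 28, iXEN, 48h, XEN, 24h, 9h and ES, and the ranges of the duplicates overlapped for day 14 and day 7, 48h and XEN, 48h and 24h, and 9h and ES.

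H19 UMIs were found in a minority of cells, and a cell without one need not lack the RNA. In the day 7 libraries 19.8% and 31.6% of cells held an H19 UMI, in the day 14 libraries 21.9% and 38.6%, in the day 28 libraries 14.6% and 15.2% and in the XEN-iPS libraries 17.5% and 13.4%, against 0.836% and 0.471% in XEN and 0.0131% and 0.0216% in ES. Cells of the 8 libraries from day 7 to XEN-iPS had median totals of 10980 to 29770 UMIs, those of XEN 15020 and 18980 and those of ES 13120 and 13150. After each cell was thinned to 2000 UMIs these shares were 7.25% and 12.9% at day 7, 7.73% and 16.6% at day 14, 4.53% and 3.32% at day 28 and 5.62% and 4.77% in XEN-iPS, with 85 to 1025 shallower cells left out per library, and 0.0745% and 0.0863% in XEN and 0% in both ES libraries. Cells with 10 or more H19 UMIs, a limit chosen after the values were seen, made up 0.963% to 5.70% of the cells in these 8 libraries and held 38.2% to 68.9% of their H19 UMIs. A single day 14 cell held 289 H19 UMIs. The XEN, ES, 9h and 24h libraries held no such cell, 48h replicate 1 held 2, 48h replicate 2 held 0, and the iXEN libraries held 3 and 7.

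**Figure D2:**
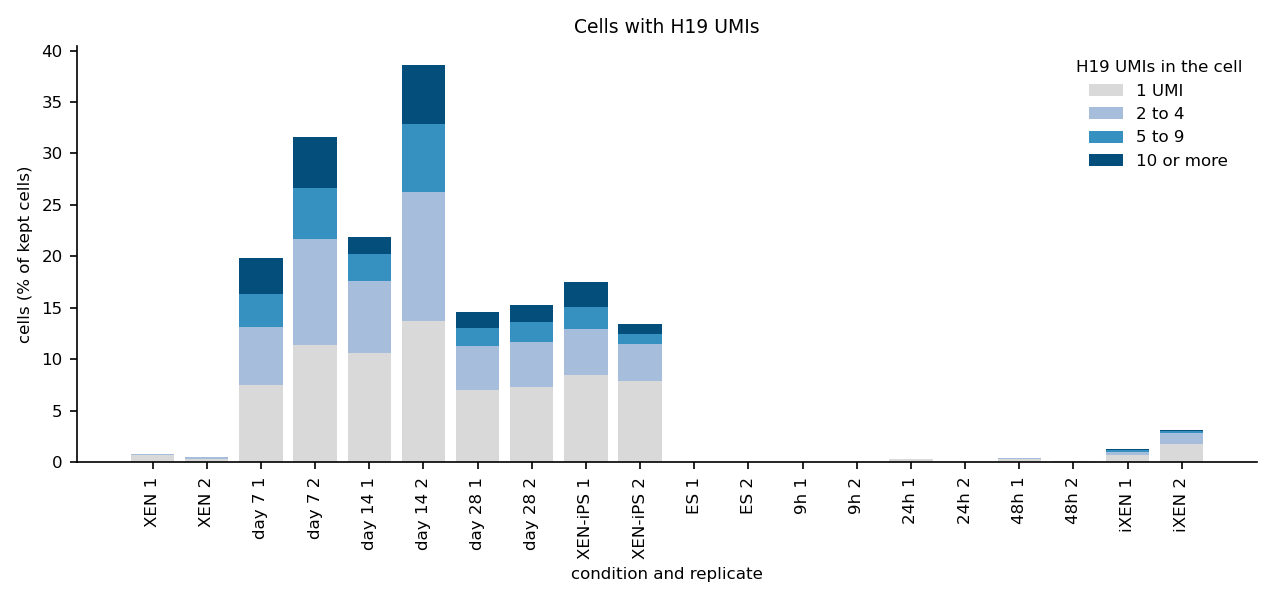
Share of kept cells (vertical axis, %) with 1, 2 to 4, 5 to 9 or 10 or more H19 UMIs in each of the 20 libraries (horizontal axis). Cells with 10 or more, the darkest part of each bar, appear in the 8 libraries from day 7 to XEN-iPS at 0.963% to 5.70%.

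Igf2 was set beside H19 in the same cells. In the day 7 libraries Igf2 was at 9.51 and 15.2 plain CPM in the H19-rich cells against 1.30 and 0.684 CPM in the rest. In the day 14 libraries it was at 58.0 and 34.0 CPM against 2.98 and 2.96 CPM. In the day 28 libraries it was at 9.38 and 4.02 CPM against 1.00 and 0.381 CPM, and in the XEN-iPS libraries at 1.52 and 22.8 CPM against 1.03 and 8.86 CPM. The H19-rich cells held between 18 and 212 Igf2 UMIs in 6 of these 8 libraries, all with a higher Igf2 level than the rest, a description of cells that are not replicates. In day 28 replicate 2 they held 6 Igf2 UMIs and in XEN-iPS replicate 1 only 3, too few to read a difference. Collagen was lower in the H19-rich cells than in the rest in 7 of these 8 libraries, and in day 28 replicate 2 it was 4.02 against 0.397 CPM. Both groups hold only cells kept for being under the collagen limit. The H19-rich cells with any collagen UMI numbered from 0 (day 7 replicate 2) to 17 (XEN-iPS replicate 2). These collagen values thus cannot decide whether the H19-rich cells hold feeder RNA, and no conclusion is drawn from them. On the endoderm side of the marker share (at most 20% of marker UMIs pluripotent) lay 95.6% and 94.4% of the H19-rich cells of day 7 and 96.4% and 94.6% of those of day 14, where 87.9% to 91.2% of all cells lay on that side. At day 28 it was 46 of 87 and 13 of 32 H19-rich cells, or 52.9% and 40.6%, beside 50.7% and 53.0% of all cells. On the pluripotent side (at least 80%) lay 87.8% and 93.6% of the H19-rich cells of XEN-iPS, beside 90.5% and 67.7% of all cells. The limit for H19-rich cells is a raw count, which shallow cells rarely reach. In XEN-iPS replicate 2 the endoderm-side and between cells had median totals of 2300 and 2542 UMIs, against 14250 on the pluripotent side. By plain CPM, H19 in the XEN-iPS libraries was at 43.9 and 14.9 on the endoderm side, 185 and 77.5 between, and 60.8 and 44.5 on the pluripotent side.

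Igf2 had 0 and 4 UMIs in the XEN libraries, the second being 0.035 CPM. It was at 1.86 and 1.53 CPM at day 7, 4.69 and 5.07 CPM at day 14, 1.14 and 0.441 CPM at day 28 and 1.01 and 7.93 CPM in XEN-iPS, all above both XEN libraries. The log2 fold changes were 6.43 (SE 1.60, adjusted p = 0.00955), 7.96 (SE 1.59, adjusted p = 0.00248), 5.36 (SE 1.63, adjusted p = 0.0177) and 7.83 (SE 1.59, adjusted p = 0.000734). With 4 XEN UMIs as their base these are uncertain in size, and the call ended without XEN replicate 1 at day 7 (adjusted p = 0.0935) and at day 28 without any 1 of XEN replicate 1, XEN replicate 2 or day 28 replicate 1 (adjusted p between 0.0606 and 0.123). At the ratio of Igf2 to collagen in the feeder cells of the same library, the collagen left in kept cells would come with 0.177 Igf2 plain CPM in XEN-iPS replicate 1 and 2.58 in replicate 2, which is 17.0% and 28.4% of the Igf2 there (1.04 and 9.08 plain CPM). That ratio comes from cells chosen for 5 or more collagen UMIs and is applied to cells under that limit. Such shares depend on the limit and are no upper bound. On the pluripotent side of the marker share the XEN-iPS libraries held 0.533 and 3.26 plain CPM of Igf2 with 2.03 and 32.2 collagen CPM. On the endoderm side and between, replicate 2 held 65.2 and 46.3 Igf2 CPM with 308 and 236 collagen CPM, and replicate 1 held 20.2 and 5.03 Igf2 CPM. In replicate 2 these were 184 and 135 Igf2 UMIs, beside 151 on the pluripotent side. The part of these cells in the XEN-iPS values was not tested.

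In the ES line Igf2 was at 5.51 and 0.36 CPM in ES, 2.44 and 2.66 CPM at 9h, 25.4 and 7.49 CPM at 24h, 50.7 and 14.8 CPM at 48h and 28.8 and 20.7 CPM in iXEN. The duplicates of ES differed 15.3-fold, and the 9h libraries lay between them. On the pluripotent side of the marker share the ES libraries held 1.15 and 0.248 plain CPM, beside 5.46 and 0.347 plain CPM in all kept cells. The remaining cells of ES replicate 1 (67 on the endoderm side and 170 between) held 180 and 86.0 CPM. The 48h and iXEN libraries were above both ES libraries, with log2 fold changes of 3.48 (SE 1.06, adjusted p = 0.0179) and 3.08 (SE 1.05, adjusted p = 0.0222). Both calls ended without ES replicate 2 (adjusted p = 0.0977 and 0.118), the 48h call also without 48h replicate 1 (adjusted p = 0.123) and the iXEN call without iXEN replicate 1 (adjusted p = 0.0589) and with only the compared groups fitted (adjusted p = 0.0519). With the collagen-positive cells kept, which come from ES replicate 1 and iXEN and not from 48h, the values were 2.72 at 48h (adjusted p = 0.11) and 2.38 in iXEN (adjusted p = 0.127), and neither was called. At 24h both libraries were also above ES, at a log2 fold change of 2.49 that missed the threshold (SE 1.02, adjusted p = 0.127) and passed it without ES replicate 1 (5.51, adjusted p = 0.0301), with ES reduced to its pluripotent-side cells (4.53, adjusted p = 0.00421) and with no filter on low counts (2.51, adjusted p = 0.0408). iXEN was above XEN by a log2 fold change of 10.30 (SE 1.64, adjusted p = 0.000552). ES was above XEN by 7.22 (SE 1.58, adjusted p = 0.00133). Both calls held in every setting tried, but with 0 and 4 XEN UMIs as their base the sizes are uncertain.

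Mest, Snrpn, Peg3 and Nnat are paternally expressed genes with transcription starts inside or beside the region that is methylated on the maternal copy. Only genes with a window could be shown, and Peg10 is missing here because it had none. The windows below run from 250 bases before to 50 after a RefSeq start (GRCm38.p6) and are shown because the CG dinucleotides, in capitals, are what that methylation falls on. For genes with several starts the window richest in CG is given.
Mest, chr6:30737800-30738099, plus strand: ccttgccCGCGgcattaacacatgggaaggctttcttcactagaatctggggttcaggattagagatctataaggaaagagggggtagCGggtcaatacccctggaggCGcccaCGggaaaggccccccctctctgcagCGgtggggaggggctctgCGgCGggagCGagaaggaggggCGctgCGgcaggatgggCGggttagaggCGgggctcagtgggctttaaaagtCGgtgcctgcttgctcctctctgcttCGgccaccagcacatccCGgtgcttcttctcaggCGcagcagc
Snrpn, chr7:60005150-60005449, minus strand: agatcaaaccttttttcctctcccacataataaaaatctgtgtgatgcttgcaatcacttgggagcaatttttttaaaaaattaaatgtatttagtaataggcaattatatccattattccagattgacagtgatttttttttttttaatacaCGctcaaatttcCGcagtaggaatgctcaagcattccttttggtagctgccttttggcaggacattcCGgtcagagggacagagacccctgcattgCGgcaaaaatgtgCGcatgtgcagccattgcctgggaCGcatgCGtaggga
Peg3, chr7:6730370-6730669, minus strand: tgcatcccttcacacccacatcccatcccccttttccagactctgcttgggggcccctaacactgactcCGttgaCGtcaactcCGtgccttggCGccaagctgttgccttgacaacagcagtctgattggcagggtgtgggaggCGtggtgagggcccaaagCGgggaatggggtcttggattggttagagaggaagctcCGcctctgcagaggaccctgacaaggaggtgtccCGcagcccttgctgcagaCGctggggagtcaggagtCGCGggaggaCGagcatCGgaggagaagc
Nnat, chr2:157559828-157560127, plus strand: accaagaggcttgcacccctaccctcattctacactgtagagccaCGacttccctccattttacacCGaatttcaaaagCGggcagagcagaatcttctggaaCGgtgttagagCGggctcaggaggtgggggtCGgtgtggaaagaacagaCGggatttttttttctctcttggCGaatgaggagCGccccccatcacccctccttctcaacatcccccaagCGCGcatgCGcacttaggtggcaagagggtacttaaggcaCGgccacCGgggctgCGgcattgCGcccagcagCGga
The windows held 17, 7, 13 and 17 CG. Of 32851 windows in the table, with a median of 7, as many or more CG were found in 31.4%, 52.1%, 37.9% and 31.4%. The letters TGCCGC, the core that the methylation-keeping protein Zfp57 binds, were searched on both strands and occurred 2 times in the Mest window, 1 time each in those of Snrpn and Nnat and 0 times in that of Peg3. They occurred in 11.6% of all windows. Windows were matched for 7 of the 10 genes. H19, Peg10 and Cdkn1c had none in the table.

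Mest encodes an endoplasmic reticulum protein of the hydrolase family, on chromosome 6 (30723547 to 30748465). Its end overlaps Copg2 on the opposite strand (17606 UMIs over all libraries). Igf2 and Cdkn1c likewise overlap the antisense genes Igf2os and Gm44732, and without the strand setting such reads cannot be told apart. It was at 0.87 and 2.96 CPM in the XEN libraries, 0.157 and 0.073 CPM at day 7, 0.881 and 0.1 CPM at day 14, 10.5 and 15.8 CPM at day 28 and 88.9 and 15.2 CPM in XEN-iPS. Day 28 and XEN-iPS were above every earlier library of the line, but the XEN-iPS duplicates differed 5.83-fold and their lower value lay inside the range of day 28. Mest rose in XEN-iPS (log2 fold change 4.76, SE 1.15, adjusted p = 0.00265) in every setting tried. At day 28 the log2 fold change was 2.78 (SE 1.06, adjusted p = 0.0484), a call that ended without any 1 of the 4 libraries (adjusted p between 0.0673 and 0.266) and with DESeq2 (adjusted p = 0.123), feeder cells kept (adjusted p = 0.0796) or the collagen limit scaled to each cell's UMI total (adjusted p = 0.0523). At day 7 it was -4.15 (SE 1.35, adjusted p = 0.0354), and this call also ended without XEN replicate 2, day 7 replicate 1 or day 7 replicate 2 (adjusted p between 0.0985 and 0.214) and with feeder cells kept (adjusted p = 0.0647).

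In the ES line Mest was nearly without UMIs before iXEN: the ES libraries held 6 and 2, the 9h libraries 0 and 9, the 24h libraries 2 and 3, and the 48h libraries 2 and 0. iXEN held 137 and 10 UMIs, or 2.13 and 0.151 CPM, a 14.1-fold difference between duplicates. The iXEN call (log2 fold change 5.02, SE 1.45, adjusted p = 0.0093) ended without iXEN replicate 1 (adjusted p = 0.345) and without ES replicate 2 (adjusted p = 0.0815). The ratio of ES to 48h was 2.35 with a 95% counting interval of 0.468 to 22.7. XEN-iPS exceeded ES by a log2 fold change of 10.54 (SE 1.59, adjusted p = 0.000574) and XEN exceeded ES (ES against XEN, -5.77, SE 1.44, adjusted p = 0.00333), both in every setting tried. The XEN-iPS library with more Mest, replicate 1, also held more RNA of 8 markers of 2-cell-like cells, a state near that of the early embryo found in pluripotent cultures, summed to 103.5 CPM against 3.27 CPM in replicate 2. Their part in the Mest level was not tested.

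Snrpn encodes a splicing-factor protein, N of the small nuclear ribonucleoproteins, and lies on chromosome 7 (59982495 to 60140219, minus strand), where it overlaps Gm38393 (5296 UMIs over all libraries) on the same strand. The XEN libraries held 21.7 and 24.5 CPM of Snrpn, those of day 7 held 19.3 and 28.3 CPM and those of day 14 held 19.8 and 24.7 CPM, so these 3 conditions overlapped. It was at 84.1 and 107 CPM at day 28 and 504 and 361 CPM in XEN-iPS, above all of those. It rose by a log2 fold change of 2.04 (SE 0.30, adjusted p = 0.00011) at day 28 and 4.22 (SE 0.33, adjusted p = 1.51e-07) in XEN-iPS, in every setting tried. Along the ES conversion Snrpn was at 220 and 208 CPM in ES, 133 and 125 CPM at 9h, 125 and 107 CPM at 24h, 60.2 and 48.5 CPM at 48h and 46.7 and 23.8 CPM in iXEN. The libraries of successive conditions did not overlap. Those of 9h and 24h were barely apart (125.2 against 124.7 CPM), and that step was not tested. Against ES, 48h (log2 fold change -1.98, SE 0.30, adjusted p = 0.000136) and iXEN (-2.60, SE 0.30, adjusted p = 6.53e-06) fell in every setting tried. At 9h and 24h the values were -0.73 (SE 0.29, adjusted p = 0.139) and -0.89 (SE 0.29, adjusted p = 0.0575). ES exceeded XEN by 3.21 (SE 0.31, adjusted p = 8.74e-07) and the value for iXEN against XEN missed the threshold (0.61, SE 0.29, adjusted p = 0.131), but passed it with library totals (1.02, adjusted p = 0.0274) and without iXEN replicate 2 (1.01, adjusted p = 0.0235). XEN-iPS against ES was 1.01 (SE 0.29, adjusted p = 0.0226), at the fold limit, and the call ended without XEN-iPS replicate 1 or either ES library (adjusted p between 0.107 and 0.141), with feeder cells kept (0.77, adjusted p = 0.106) and with only the compared groups fitted (adjusted p = 0.0952). The fold fell just under the limit with the collagen limit scaled to UMI totals (0.993) and with no minimum of genes per cell (0.999).

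Peg3 encodes a zinc finger protein, on chromosome 7 (6703892 to 6730431). It was at 179 and 169 CPM in the XEN libraries, 200 and 184 CPM at day 7, 99.5 and 130 CPM at day 14, 77.0 and 49.6 CPM at day 28 and 58.8 and 40.2 CPM in XEN-iPS. Both libraries of day 14, day 28 and XEN-iPS were below both XEN libraries. It fell at day 28 (log2 fold change -1.46, SE 0.27, adjusted p = 0.000701) and in XEN-iPS (-1.81, SE 0.27, adjusted p = 5.7e-05) in every setting tried, while day 14 missed the threshold (-0.60, SE 0.26, adjusted p = 0.114). Through the ES conversion Peg3 was at 21.5 and 13.9 CPM in ES, 5.73 and 6.46 CPM at 9h, 15.3 and 14.8 CPM at 24h, 35.6 and 34.1 CPM at 48h and 201 and 148 CPM in iXEN. It rose in iXEN by a log2 fold change of 3.30 (SE 0.29, adjusted p = 4.74e-07), in every setting tried. At 48h it was above both ES libraries at a log2 fold change of 0.98, just under the fold limit (SE 0.27, adjusted p = 0.00934). It passed that limit with only the compared groups fitted (1.02), with cells of 2 or more collagen UMIs left out (1.12) and with end states set by marker share (1.42), and also without ES replicate 1 (1.33) or without either 48h library (1.03 and 1.01). At 9h it was below both (-1.54, SE 0.27, adjusted p = 0.00437), a call that ended without ES replicate 1 or either 9h library (adjusted p between 0.0518 and 0.0851). With run as a term, the log2 fold change of Peg3 was 1.21 from 24h to 48h (adjusted p = 0.00806) and 2.29 from 48h to iXEN (adjusted p = 0.000291). The iXEN and XEN libraries overlapped, with a log2 fold change of 0.00 (SE 0.26).

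Peg10, a gene derived from a retrotransposon and needed in the placenta, lies on chromosome 6 (4747306 to 4760517). It was at 94.8 and 86.1 CPM in the XEN libraries, 118 and 60.5 CPM at day 7, 114 and 130 CPM at day 14, 57.4 and 44.5 CPM at day 28 and 33.1 and 14.1 CPM in XEN-iPS. Only XEN-iPS passed the test (log2 fold change -1.94, SE 0.59, adjusted p = 0.0117), and not without XEN-iPS replicate 2 (adjusted p = 0.095). Through the ES conversion Peg10 was at 31.7 and 28.6 CPM in ES, 9.58 and 8.88 CPM at 9h, 9.36 and 10.4 CPM at 24h, 14.4 and 2.31 CPM at 48h and 25.1 and 13.6 CPM in iXEN. All libraries from 9h on were below both ES libraries. Peg10 was called at 48h (-1.86, SE 0.59, adjusted p = 0.0224), where the duplicates differed 6.25-fold, and the call ended without ES replicate 1, ES replicate 2 or 48h replicate 2 (adjusted p between 0.0585 and 0.124) and with only the compared groups fitted (adjusted p = 0.0858). At 9h (-1.71, adjusted p = 0.0906) and 24h (-1.61, adjusted p = 0.0871) the duplicates were within 1.11-fold. Those values missed the threshold but passed it with DESeq2 (adjusted p = 0.0307 and 0.0352), with no filter on low counts (0.026 and 0.0253) and with only the compared groups fitted (0.000711 and 0.00283).

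Nnat, which encodes a small membrane protein of neural and endocrine cells, lies on chromosome 2 (157560078 to 157562522) inside Blcap on the opposite strand (21244 UMIs over all libraries). Whether counting used the strand is not stated in the sources used here, so their reads cannot be told apart. Nnat was at 0.019 and 0.071 CPM in the XEN libraries, at 0.1 to 0.783 CPM in the 6 libraries of days 7, 14 and 28, and at 5.70 and 7.06 CPM in XEN-iPS. It rose in XEN-iPS by a log2 fold change of 7.09 (SE 1.29, adjusted p = 0.000312) in every setting tried. At day 28 (3.44, SE 1.26, adjusted p = 0.0414) the call ended without XEN replicate 1, XEN replicate 2 or day 28 replicate 2 (adjusted p between 0.0931 and 0.235). Day 7 missed the threshold (3.05, adjusted p = 0.101) but passed it with DESeq2 (adjusted p = 0.0337) and with unfiltered genes (adjusted p = 0.0399). Through the ES conversion Nnat was at 26.5 and 15.6 CPM in ES, 6.01 and 6.05 CPM at 9h, 5.12 and 4.57 CPM at 24h, 1.54 and 0.486 CPM at 48h and 6.83 and 0.347 CPM in iXEN. The 48h libraries were below ES (log2 fold change -4.40, SE 1.05, adjusted p = 0.00442), and so were the iXEN libraries, which differed 19.7-fold from each other (-2.55, SE 0.96, adjusted p = 0.0358). The first call ended without 48h replicate 2 (adjusted p = 0.0549), the second without ES replicate 1, ES replicate 2 or iXEN replicate 2 (adjusted p between 0.0528 and 0.148), with library totals (-2.12, adjusted p = 0.0785) and with only the compared groups fitted (adjusted p = 0.108). At 9h and 24h the values were -1.80 and -2.12 (adjusted p = 0.255 and 0.159), and both were called with only the compared groups fitted (adjusted p = 0.00456 and 0.00483). In ES replicate 1 the cells on the endoderm side held 405 plain CPM of Nnat and those on the pluripotent side 14.5.

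The maternally expressed Phlda2, Cdkn1c and Grb10 are known to restrain growth. Phlda2 encodes a small pleckstrin-homology protein that limits placental growth, on chromosome 7 (143501545 to 143503150). It was at 121 and 216 CPM in XEN and at 4.37 to 6.83 CPM in all 6 libraries of days 7, 14 and 28, then at 49.1 and 59.4 CPM in XEN-iPS. It fell at day 7 (log2 fold change -4.94, SE 0.49, adjusted p = 2.05e-05), day 14 (-4.91, SE 0.49, adjusted p = 1.42e-05) and day 28 (-4.92, SE 0.49, adjusted p = 4.02e-06), in every setting tried. In XEN-iPS it was still below XEN (log2 fold change -1.63, SE 0.42, adjusted p = 0.00441), a call that ended without XEN replicate 2 (adjusted p = 0.0581). In the ES line Phlda2 was at 269 and 244 CPM in ES, 233 and 235 CPM at 9h, 78.1 and 135 CPM at 24h, 42.4 and 16.6 CPM at 48h and 54.9 and 27.0 CPM in iXEN. From 9h on both libraries of each condition were below both ES libraries. It fell at 48h (log2 fold change -3.12, SE 0.45, adjusted p = 9.58e-05) and in iXEN (-2.65, SE 0.44, adjusted p = 0.000157), in every setting tried, and 24h missed the threshold (-1.27, SE 0.42, adjusted p = 0.0617) but passed it in 4 other settings, which were DESeq2, an unfiltered table, end states set by marker share and a fit of only the compared groups (adjusted p between 0.0182 and 0.0448). With run as a term, 48h was below 24h (log2 fold change -1.96, adjusted p = 0.0417). The value for ES against XEN missed the threshold (0.61, SE 0.42, adjusted p = 0.232).

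Cdkn1c, which encodes the cell-cycle inhibitor p57, lies on chromosome 7 (143458339 to 143461050). It was at 0.365 and 0.247 CPM in the XEN libraries, 2.26 and 3.67 CPM at day 7, 4.62 and 11.7 CPM at day 14, 5.24 and 2.71 CPM at day 28 and 6.52 and 6.49 CPM in XEN-iPS. All later libraries were above both XEN libraries. In that order the rise was 3.28 (SE 0.66, adjusted p = 0.00267), 4.73 (SE 0.69, adjusted p = 0.00026), 3.70 (SE 0.67, adjusted p = 0.000585) and 4.41 (SE 0.68, adjusted p = 7.54e-05) on the log2 scale, in every setting tried. Its level matching the collagen left in kept cells was 0.216 plain CPM in day 7 replicate 1 and 0.618 in XEN-iPS replicate 2, which is 10.8% and 8.31% of the Cdkn1c there (2.00 and 7.43 plain CPM). These shares use the ratio of cells chosen for their collagen and are no upper bound. By side, XEN-iPS held 19.4 and 49.6 plain CPM on the endoderm side, 41.7 and 29.8 between and 5.40 and 3.33 on the pluripotent side. In replicate 2 these were 140, 87 and 154 UMIs with 308, 236 and 32.2 collagen CPM. The ES conversion started with Cdkn1c at 29.7 and 43.0 CPM in ES, 23.4 and 18.4 CPM at 9h, 25.2 and 14.1 CPM at 24h, 9.47 and 2.04 CPM at 48h and 13.9 and 9.84 CPM in iXEN. It fell at 48h (log2 fold change -2.67, SE 0.60, adjusted p = 0.00289), in every setting tried, and in iXEN (-1.61, SE 0.57, adjusted p = 0.0281), a call that ended without ES replicate 2 or either iXEN library (adjusted p between 0.0771 and 0.151) and with library totals in place of TMM (-1.24, adjusted p = 0.0944). ES exceeded XEN by 6.89 (SE 0.75, adjusted p = 2.44e-06) and iXEN exceeded XEN by 5.28 (SE 0.70, adjusted p = 0.000155), in every setting tried.

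Grb10, an adaptor protein that restrains insulin and growth factor signalling, lies on chromosome 11 (11930508 to 12038683). It was at 6.26 and 10.1 CPM in the XEN libraries, 8.27 and 8.24 CPM at day 7, 16.6 and 14.2 CPM at day 14, 3.54 and 5.18 CPM at day 28 and 6.59 and 15.6 CPM in XEN-iPS, and none of these 4 later conditions was called against XEN, with log2 fold changes between -0.91 and 0.91 (adjusted p between 0.232 and 1). In XEN-iPS replicate 2 the level matching the collagen left in kept cells was 3.77 plain CPM, which is 21.1% of the Grb10 there (17.8 plain CPM). The ratio used is that of cells chosen for their collagen, so this share is no upper bound. Pluripotent-side cells of the XEN-iPS libraries held 4.47 and 7.37 plain CPM of Grb10 with 2.03 and 32.2 collagen CPM. Endoderm-side cells held 37.5 and 112 Grb10 CPM with 64.1 and 308 collagen CPM, and cells between held 63.3 and 87.8 with 70.9 and 236. In replicate 2 the Grb10 UMIs were 316 on the endoderm side, 256 between and 341 on the pluripotent side. Whether the cells off the pluripotent side are feeder cells under the limit was not tested. The ES conversion started with Grb10 at 52.3 and 60.5 CPM in ES, 28.9 and 28.8 CPM at 9h, 79.4 and 62.3 CPM at 24h, 52.8 and 14.9 CPM at 48h and 23.4 and 5.81 CPM in iXEN. Only iXEN passed the test (-1.95, SE 0.59, adjusted p = 0.012), and not without iXEN replicate 2 (adjusted p = 0.104). Without 48h replicate 1, 48h was called too (-1.84, adjusted p = 0.0471). ES exceeded XEN by 2.79 (SE 0.61, adjusted p = 0.00128), in every setting tried.

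**Figure D3:**
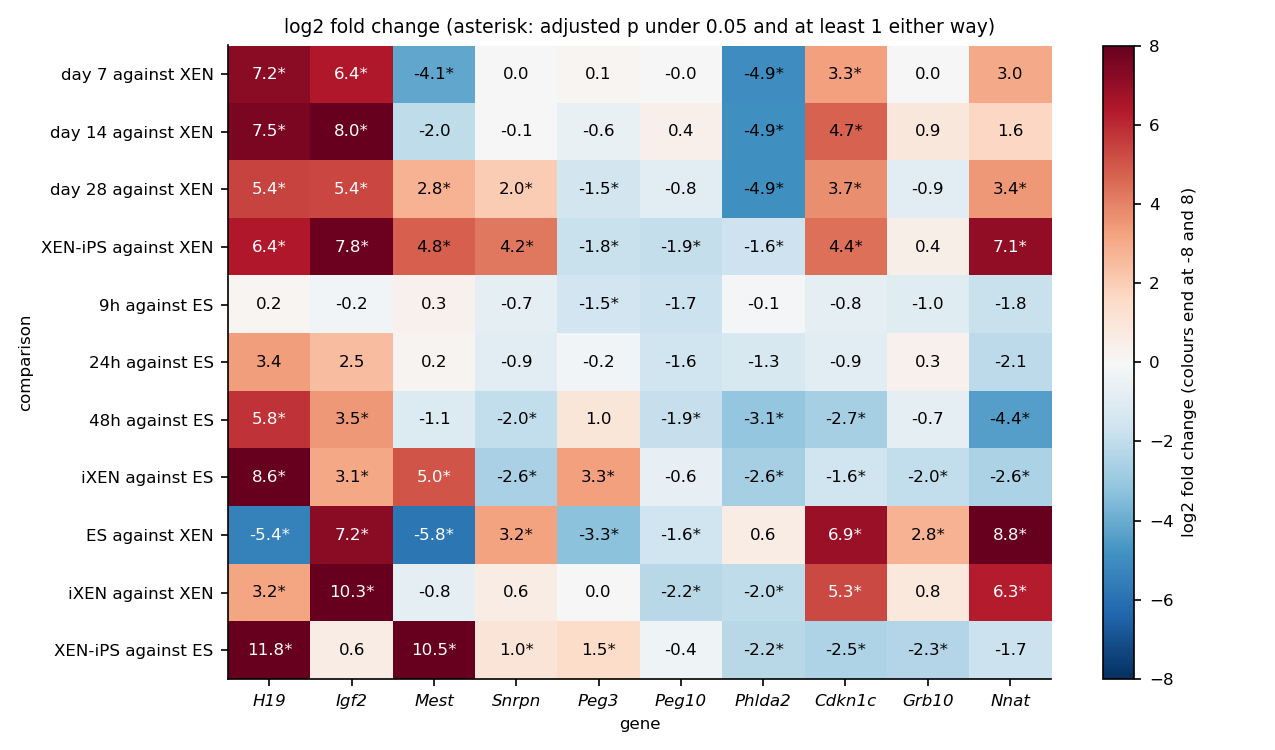
Log2 fold change of each gene (columns) in 11 comparisons (rows), printed and coloured from blue (lower in the first named condition) to red (higher), with asterisks on the called ones. Phlda2 stayed near -4.9 at days 7, 14 and 28, and Snrpn changed from about 0 at days 7 and 14 to 2.04 at day 28 and 4.22 in XEN-iPS.

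At day 28 the 2 libraries held both endoderm and pluripotent cells, which were separated by the share of pluripotent markers among marker UMIs. On the endoderm side were 2823 and 1049 cells and on the pluripotent side 893 and 415. A further 1848 and 515 cells (33.2% and 26%) lay between the sides. From the endoderm to the pluripotent side of the same library, Mest went from 1.15 to 34.3 plain CPM and from 1.17 to 45.0 plain CPM, the unit of all values by side. Snrpn went from 28.1 to 221 CPM and from 21.7 to 274 CPM, and Phlda2 from 3.21 to 13 CPM and from 1.27 to 14.9 CPM. Nnat went from 0.125 to 0.787 CPM (6 and 22 UMIs) and from 0.133 to 1.96 CPM (4 and 40 UMIs). H19 went the other way, from 38.7 to 8.37 CPM and from 21.8 to 4.32 CPM, as did Igf2, from 2.11 to 0.0716 CPM and from 0.633 to 0.0491 CPM. The Igf2 levels rest on 2 and 1 UMIs on the pluripotent side, beside 101 and 19 on the endoderm side. Peg3 went from 89.5 to 18.3 CPM and from 70.6 to 15.7 CPM, Peg10 from 95.4 to 25.9 CPM and from 67.5 to 35.6 CPM, and Cdkn1c from 10.1 to 1.32 CPM and from 4.66 to 0.981 CPM. Grb10 was at 4.43 and 4.58 CPM in replicate 1 and 8.26 and 3.39 CPM in replicate 2. The direction was thus the same in both libraries for 9 of the 10 genes, which is a description with no test. The pluripotent-side cells were deeper, with median totals of 30530 and 49590 UMIs against 15830 and 26500. In the cells between, Mest (4.60 and 9.62 CPM) and Snrpn (52.8 and 75.5 CPM) lay between the values of the sides in both libraries. H19 in replicate 2 (37.7 CPM) and Peg3 in replicate 1 (109 CPM) were above both sides there, so not every gene changed in steps from side to side.

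**Figure D4:**
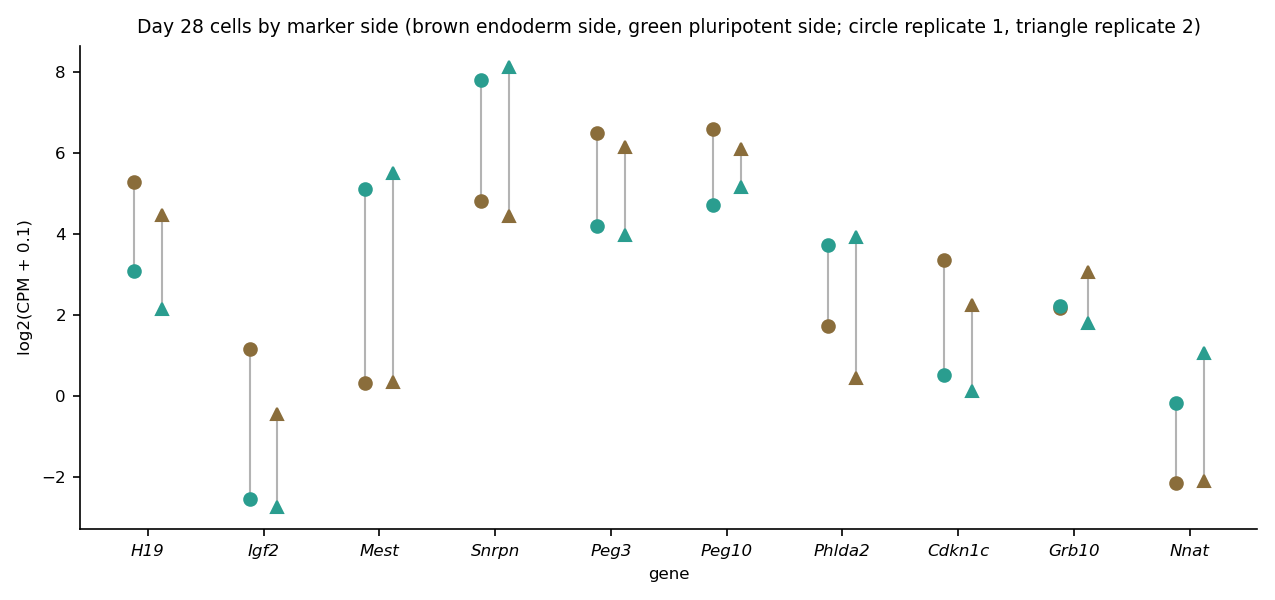
Levels of the 10 genes in day 28 cells, as log2(CPM + 0.1) of plain CPM on the vertical axis, on the endoderm side (brown) and the pluripotent side (green) of the marker share (circles replicate 1, triangles replicate 2). Mest, Snrpn, Phlda2 and Nnat were higher on the pluripotent side in both libraries, and H19, Igf2, Peg3, Peg10 and Cdkn1c were lower. The pluripotent-side Igf2 levels rest on 2 and 1 UMIs. Cells between the sides are not drawn.

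The 2 lines were compared in the same direction, from the pluripotent to the endoderm end state: iXEN against ES, and XEN against XEN-iPS. Snrpn, Cdkn1c and Nnat were lower in the endoderm state of both lines and Peg3 was higher in both, each past the test in both lines, though Cdkn1c and Nnat in iXEN against ES were not called with library totals in place of TMM. H19 was higher in iXEN than in ES but lower in XEN than in XEN-iPS, as were Igf2 and Mest. As given above, the Igf2 and Mest calls in iXEN against ES did not hold in every setting. Phlda2 was lower in iXEN than in ES but higher in XEN than in XEN-iPS. The difference between the lines was tested as an interaction, in which 9 of 10 genes were called (27.1% of all genes). It was 14.99 for H19 (SE 1.54, adjusted p = 3.39e-05), 10.91 for Igf2 (SE 1.91, adjusted p = 0.00114), 9.79 for Mest (SE 1.83, adjusted p = 0.00166) and -4.28 for Phlda2 (SE 0.61, adjusted p = 0.000292), and these 4 calls held in every setting tried. Smaller differences were found for Snrpn (1.62), Peg3 (1.49), Peg10 (-2.58), Cdkn1c (2.80) and Nnat (4.54), with adjusted p between 0.00918 and 0.0372, and their calls ended without 1 or more libraries. The Peg10 call also ended with library totals (adjusted p = 0.0683), that of Cdkn1c with end states set by marker share or cells of 2 or more collagen UMIs left out (adjusted p = 0.0869 and 0.0584), and that of Nnat with feeder cells kept or only the compared groups fitted (adjusted p = 0.0502 and 0.0823). Grb10 missed the threshold (-1.51, SE 0.81, adjusted p = 0.176), but was called with end states set by marker share (-2.62, adjusted p = 0.0207) and without iXEN replicate 1 (-2.84, adjusted p = 0.0218). These 4 conditions came from several runs, different lines and different media, and feeders are named only for the XEN line. Line, run, medium and feeders thus cannot be told apart.

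**Figure D5:**
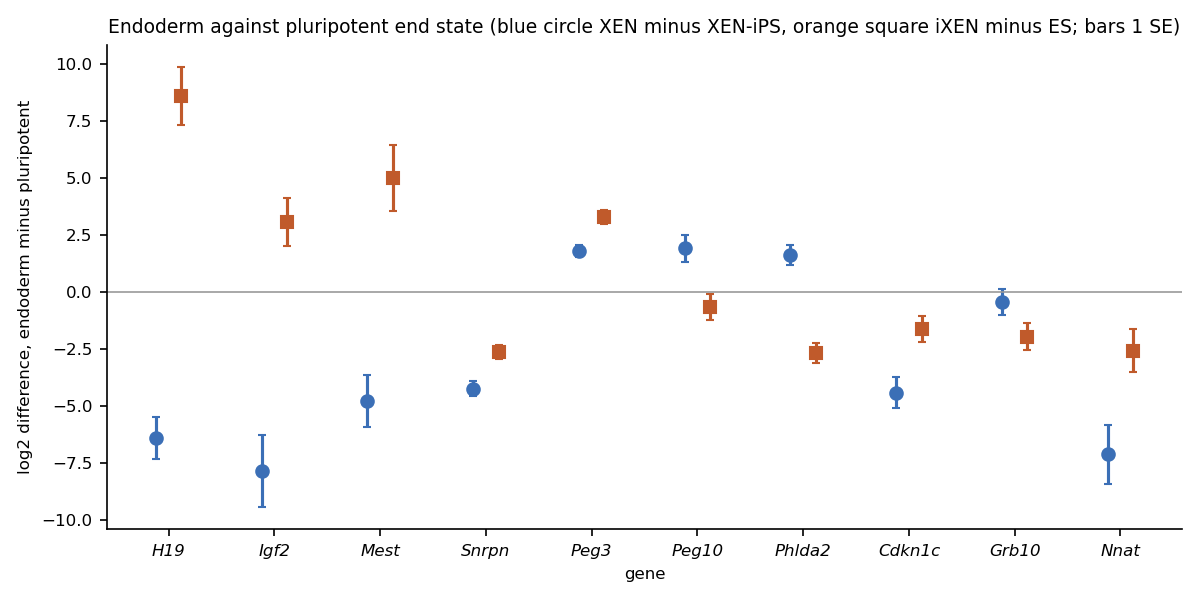
Log2 difference between endoderm and pluripotent end state (vertical axis) for each gene, in the XEN line (blue circles, XEN minus XEN-iPS) and the ES line (orange squares, iXEN minus ES), with bars of 1 SE. H19, Igf2 and Mest lie on opposite sides of 0 in the 2 lines, with interaction values of 14.99, 10.91 and 9.79.

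The end states themselves differed between lines. XEN-iPS against ES had H19 (11.83, SE 1.30, adjusted p = 6e-05) and Mest (10.54) higher and Phlda2 (-2.24, SE 0.43, adjusted p = 0.00297) lower in every setting tried, with Peg3 also higher (1.49, SE 0.27, adjusted p = 0.00198) and Cdkn1c (-2.48, SE 0.59, adjusted p = 0.00954) and Grb10 (-2.35, SE 0.60, adjusted p = 0.0134) lower. The Peg3 call ended with only the compared groups fitted (adjusted p = 0.0694), the Cdkn1c call without ES replicate 2 (adjusted p = 0.0725) and the Grb10 call without XEN-iPS replicate 1 or ES replicate 2 (adjusted p = 0.0747 and 0.0724) or with only the compared groups fitted (adjusted p = 0.052). With feeder cells kept Grb10 was at -1.17 (adjusted p = 0.247). iXEN against XEN had Igf2 and Cdkn1c higher and Phlda2 lower (-2.04, SE 0.43, adjusted p = 0.0035) in every setting tried. H19 (3.17, SE 0.81, adjusted p = 0.0106) and Nnat (6.26, SE 1.27, adjusted p = 0.00272) were also higher and Peg10 lower (-2.22, SE 0.60, adjusted p = 0.0134). The H19 call ended without XEN replicate 2 or iXEN replicate 2 (2.74 and 2.27) and the Peg10 call without XEN replicate 1 or iXEN replicate 2 (-2.13 and -1.86). The Nnat call ended without iXEN replicate 1, where the log2 fold change fell to 2.96, so its size rests on that library.

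A further 70 imprinted genes were read from the same fits, of which 54 passed the filter on low counts. Against XEN, 11 of the 54 were called at day 7 (20.4%, beside 18.4% of all genes), 15 at day 14 (27.8%, beside 17.8%), 21 at day 28 (38.9%, beside 29.8%) and 33 in XEN-iPS (61.1%, beside 45.2%). The highest called at day 28 was Slc38a4, an amino acid transporter gene (log2 fold change 9.89, adjusted p = 4.49e-06), and the lowest Ddc (-2.34, adjusted p = 0.000585). In XEN-iPS they were Dlk1, which encodes a Notch-like ligand (10.72, adjusted p = 1.05e-05), and Sfmbt2 (-3.05, adjusted p = 0.000123). The comparisons with ES called 3 of the 54 at 9h (5.56%, beside 6.14% of all genes), 2 at 24h (3.70%, beside 9.81%), 14 at 48h (25.9%, beside 29.6%) and 26 with iXEN (48.1%, beside 42.3%), where Rasgrf1 was the highest (6.85, adjusted p = 2.02e-05) and Th, the enzyme tyrosine hydroxylase, the lowest (-4.85, adjusted p = 0.0427). ES against XEN gave 36 calls (66.7%, beside 44.3% of all genes), iXEN against XEN 22 (40.7%, beside 20.2%) and XEN-iPS against ES 14 (25.9%, beside 16.3%). In XEN-iPS against ES the highest was Dcn (8.46, adjusted p = 0.000245), which is also on the fibroblast marker list. The 12 listed fibroblast markers other than the 3 collagens, all with UMIs in both conditions, summed to 33.1 and 117 CPM in XEN-iPS and 8.56 and 6.39 CPM in ES, and their part in this result was not tested. In the interaction, 23 of the 54 were called (42.6%, beside 27.1% of all genes). All 23 were higher, as were 67.7% of the calls over all genes, a share that became 91.1% with library totals in place of TMM.

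Of 20 genes listed as imprint regulators, which act on DNA methylation or on chromatin, all 20 were tested. Against XEN, 0 were called at day 7 by edgeR (beside 18.4% of all genes), where 4 had an unadjusted p under 0.05 and DESeq2 also called 0. At day 14 3 were called (15%, beside 17.8% of all genes), at day 28 5 (25%, beside 29.8%) and in XEN-iPS 9 (45%, beside 45.2%). ES against XEN gave 12 (60%, beside 44.3%), iXEN against XEN 3 (15%, beside 20.2%), XEN-iPS against ES 4 (20%, beside 16.3%) and the interaction 6 (30%, beside 27.1%). Dppa3, which protects methylation in the zygote, was the highest called at day 14 (7.29, adjusted p = 0.000474), day 28 (13.04, adjusted p = 6.09e-07) and XEN-iPS (14.38, adjusted p = 1.05e-07). Tet3, which oxidizes methylated cytosine, was the lowest in XEN-iPS (-2.70, adjusted p = 2.51e-07) and the highest in iXEN against ES (2.52, adjusted p = 4.89e-07). The comparisons with ES called 2 of the 20 at 9h (10%, beside 6.14% of all genes), 2 at 24h (10%, beside 9.81%), 5 at 48h (25%, beside 29.6%) and 12 with iXEN (60%, beside 42.3%), of which 11 were lower. Zfp57, which holds methylation at imprinted regions, was the lowest called both at 24h, with a value of -1.24 (adjusted p = 0.00205), and at 48h, with -2.53 (adjusted p = 1.94e-06).

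Finally, each gene's pattern was set against those of 7063 other genes with a mean of at least 10 CPM, as Pearson's r of log2(CPM + 1) over the 10 condition means, which share libraries within a condition. The most alike were Ifi27, Plin2 and Laptm4b for H19 (r from 0.939 to 0.982), Hdac5, Leng8 and R3hdm2 for Igf2 (0.939 to 0.949) and Aebp2, Gtf2a1 and Prrc1 for Mest (0.796 to 0.854). For Snrpn they were Epb41l4a, Ptp4a3 and Etv5 (0.968 to 0.988), for Peg3 Amotl1, Gng12 and Tgfb1i1 (0.971 to 0.989) and for Peg10 Trap1a, Tgds and Adi1 (0.946 to 0.955). For Phlda2 they were Kpnb1, Katnbl1 and Prc1 (0.966 to 0.973), for Cdkn1c Hmga1, Vangl2 and Snhg6 (0.877 to 0.895), for Grb10 Nedd4, Cenpc1 and Pms2 (0.928 to 0.965) and for Nnat Foxp1, Tcf15 and Zfp532 (0.951 to 0.956). Peg3 had 216 genes at an r of 0.9 or more and Mest and Cdkn1c had 0. Among the 10 genes themselves the highest r was that of Cdkn1c and Nnat (0.826), and the lowest that of H19 and Phlda2 (-0.842).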

How the data were processed

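Single cells of 20 mouse libraries were profiled by droplet 3' RNA sequencing. The authors aligned the reads with SEQC to mm10, removed cells of high mitochondrial share or low complexity, and deposited whole UMI counts per cell and gene with no normalization. The version, annotation and strand setting are not given in the sources used here. A gene without a column in a library was taken as 0 UMIs there. The deposited cluster column was not used, no doublet caller was run, and 2-cell-like and differentiating cells were kept.

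Of 134279 cells, 20991 with under 500 genes and 2563 feeder cells were left out. Counts were summed per library and tested in 1 edgeR model of the 20 libraries (quasi-likelihood, TMM, filterByExpr, 10 residual degrees of freedom), with Benjamini-Hochberg adjustment over all 16903 genes tested. In a simulation of day 28 against XEN on 16222 genes, 83% of 200 changed genes were recovered with 9 false calls. All planted changes were larger than the fold limit used for calls and lay in genes above a floor of expected counts. Recovery at the fold limit itself and in genes with few UMIs is thus not known. The alternatives were other scalings, DESeq2, other filters on genes, cells and feeder cells, a replicate block, fewer libraries and, where it could be estimated, run as a term. Runs were read from the file names. Promoter windows came from RefSeq and gene positions from GENCODE for GRCm38. Ratios with 3 or fewer UMIs in a group have exact 95% binomial intervals.

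The 10 genes and all lists were chosen with earlier results of these data known. All 10 were named whatever their values. Other genes were named as the 3 most alike in pattern, or as the highest and lowest called of their list. Versions were R 4.3.3, edgeR 4.0.16, limma 3.58.1, DESeq2 1.42.0, Python 3.11.15, numpy 2.4.6, pandas 2.3.3, scipy 1.17.1 and matplotlib 3.10.9.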

Additional observations from a re-analysis of the deposited data

Results flagged for a closer look

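The step from the pluripotent to the endoderm end state differed between the 2 lines by the interaction test for 9 of the 10 genes (edgeR, adjusted p under 0.05). On the log2 scale, iXEN against ES exceeded XEN against XEN-iPS by 14.99 for H19, 10.91 for Igf2, 9.79 for Mest, 4.54 for Nnat, 2.80 for Cdkn1c, 1.62 for Snrpn and 1.49 for Peg3. It was lower by a difference of -4.28 for Phlda2 and -2.58 for Peg10. The H19 value rests on 3 UMIs in ES, the Igf2 value on 4 UMIs in XEN and the Mest value on 8 UMIs in ES, so their size is uncertain. The iXEN duplicates of Mest also differed 14.1-fold. The Nnat difference was 1.18 without iXEN replicate 1 (adjusted p = 0.543). Line, run, medium and feeders cannot be told apart in this contrast. Within groups no outlying library was looked for, since each condition has 2 libraries.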

How the results depend on the processing

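Of 74 calls of the 10 genes over the 12 comparisons, 60 held under every other setting and 45 with every compared library left out in turn, and 0 changed direction. The count of called genes changed by more than 1.5 times in few settings. For 9h against ES it was 1, against 2 from DESeq2, 2 from the fit of unfiltered genes and 3 from the fit of the compared groups alone. For 24h against ES it was 0, against 2 from DESeq2, 3 from unfiltered genes, 2 from end states by marker share and 3 from the compared groups alone. For XEN-iPS against ES it was 7, and 4 with only the compared groups. With 1 library left out, the lone sample is assumed to vary like the other groups, and the counts ranged from 5 to 6 at day 28 (5 without either XEN library), 0 to 1 at 9h, 0 to 1 at 24h, 5 to 8 in iXEN against ES (5 without ES replicate 2) and 4 to 7 in XEN-iPS against ES. The cause was not tested.

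Keeping the collagen-positive cells ended 7 calls: Mest at day 7 and day 28, Igf2 at 48h and in iXEN against ES, Snrpn and Grb10 in XEN-iPS against ES, and Nnat in the interaction (adjusted p between 0.0502 and 0.247). Fitting only the groups compared changed the count over all genes from 1037 to 2522 at 9h, from 2754 to 508 in XEN-iPS against ES and from 4576 to 2484 in the interaction. Leaving out 1 library lowered it at 9h to 131 (9h replicate 1), 171 (9h replicate 2), 301 (ES replicate 1) and 366 (ES replicate 2), at 24h from 1659 to 657, 675 and 786 (ES replicate 1, ES replicate 2 and 24h replicate 2), and in XEN-iPS against ES to 1203 and 855 (ES replicate 1 and 2). Without XEN replicate 1 it was 1805 at day 7 (3111 with all), 1918 at day 14 (3004), 1753 in iXEN against XEN (3415) and 2864 in the interaction, without XEN replicate 2 1948 at day 14, and without the second library of day 7 or day 14 1798 and 1731. The shares over all genes move with these counts. Scaling by library totals moved the median over all genes by 0.34 in iXEN against ES, 0.374 in iXEN against XEN and 0.523 in the interaction, and the share of calls that were higher from 51% to 65.6%, 68% to 89.3% and 67.7% to 91.1%.

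The deviations of same-numbered libraries had correlations between -0.16 (iXEN against XEN) and 0.187 (day 28 against XEN), over 0.1 in 1 of 11 comparisons. In these comparisons the libraries were thus taken to share only a number. The check did not cover 48h against 24h, where same-numbered libraries share a run. With the replicate block the counts were 5, 4, 7 and 9 against XEN at day 7, day 14, day 28 and XEN-iPS, 1, 0, 8 and 9 against ES at 9h, 24h, 48h and iXEN, 9 for ES against XEN, 6 for iXEN against XEN, 7 for XEN-iPS against ES and 9 for the interaction. The block ended the call of Mest at day 28 (2.65, adjusted p = 0.0523) and added that of Peg3 at 48h (1.00, adjusted p = 0.00611).

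Changes of sign fell on fold changes that were not called. At day 7 Snrpn was -0.0457 and Grb10 -0.0729 with library totals, and Grb10 was -0.0018 with no filter, -0.0002 with the block and -0.0806 without cells of 2 or more collagen UMIs. By end states Grb10 was -0.54 in XEN-iPS against XEN, Igf2 1.86 at 9h and Peg3 0.18 at 24h. Igf2 at 9h was 0.12 with the block and 0.0795 without cells of 2 or more collagen UMIs, and Peg3 in iXEN against XEN was -0.0427 with no filter and -0.0075 with the block. With 1 library left out the ranges were, at day 7, -0.33 to 0.28 for Snrpn, -0.59 to 0.32 for Peg10 and -0.35 to 0.40 for Grb10, and at day 14 -0.22 to 0.0947 for Snrpn. In XEN-iPS against XEN Grb10 ran from -0.31 to 0.92. At 9h H19 ran from -0.40 to 0.60, Igf2 from -1.11 to 2.82 and Mest from -4.52 to 1.42, at 24h Mest from -0.46 to 1.32 and Peg3 from -0.51 to 0.11, and at 48h Mest from -4.53 to 0.12. In iXEN against XEN Mest ran from -3.61 to 0.38, Peg3 from -0.17 to 0.20 and Grb10 from -0.44 to 1.51, and in XEN-iPS against ES Igf2 from -1.53 to 3.61 and Peg10 from -1.11 to 0.13.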

Other observations

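With run as a term in the model, which could be estimated for 48h against 24h and for iXEN against 48h, Igf2 was higher at 48h than at 24h by a log2 fold change of 0.99 (adjusted p = 0.0186) and lower in iXEN than at 48h (-1.04, adjusted p = 0.0091). Without the term the adjusted p were 0.591 and 0.78. The same-numbered libraries of 24h and 48h share a run, so the term also takes up the difference between duplicates. Both iXEN libraries lie in the run of 48h replicate 1, so with the term iXEN against 48h leans more on that library. H19 in iXEN against 48h had a log2 fold change of 2.81 (adjusted p = 0.0162) without the term and 1.87 (adjusted p = 0.0686) with it. Mest in the same comparison was at 6.12 (adjusted p = 0.0179) and 5.82 (adjusted p = 0.0941).

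In the iXEN library of replicate 1, 406 cells lay between the endoderm and pluripotent sides of the marker share. In plain CPM, without TMM, they held 19.4 of Mest and 318 of Phlda2, against 1.74 and 56.8 on the endoderm side of that library. In replicate 2 the 159 cells between the sides held 0 UMIs of Mest, beside 0.177 CPM on the endoderm side, and 144 CPM of Phlda2, beside 30.3 CPM. With so few cells a count of 0 cannot show whether Mest differed there. At 48h the pluripotent-side cells held 119 and 79.3 CPM of Phlda2 and 83.7 and 38.7 CPM of Igf2, against 20.7 and 12.5 CPM and 39.2 and 12.7 CPM in the cells between. The smaller groups were shallower. Median totals at 48h were 6004 and 2226 UMIs on the pluripotent side, against 9155 and 10920 between. In iXEN they were 6670 and 1635 UMIs between, against 7476 and 7540 on the endoderm side. These are values of cells within a library and were not tested, and the part of shallow cells in them was not tested either.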
